A study of Mus musculus with 2 samples.

Results

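The microRNA cluster of Mir322, Mir503, Mir351, Mir542, Mir450-1, Mir450-2 and Mir450b was measured in the intestine of mouse embryos. Its 7 genes were chosen by name and genomic location out of 1973 microRNA genes in the count tables. Earlier results of these data were known at that point. All 7 were found and all passed the minimum of 10 counts in both libraries, as did 363 genes in all. Small RNA with inserts under 30 bases was sequenced from the intestine of B6NCrl embryos at 14.5 days of development, without any treatment or engineered allele in the labels, in 2 libraries that the labels call biological replicates 1 and 2. The labels describe each sample as a single intestine but give its sex as pooled male and female. Collection day differed between the replicates (day 17 of the month for replicate 1, day 15 for replicate 2) and cannot be told apart from the replicate. Both libraries belong to 1 group, and the labels give no second condition to compare it with.

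A microRNA is cut from a hairpin precursor, which can give a product from each arm, named 5p and 3p. The product finds messenger RNAs largely through its seed, bases 2 to 8, and represses them. MicroRNA genes that lie close together on one strand are often cut from a single long transcript. miR-322, known in humans as miR-424, and miR-503 belong to the wider miR-15/16 group, which is known for restraining cell cycle genes. The pair is also known for its part in muscle differentiation. miR-351 carries the seed of the miR-125 family.

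The sequences show which members could act alike and which cannot be told apart by reads. They are RefSeq mature sequences (GRCm38.p6), in which all 7 genes had a mature entry, and the seed is in capitals. The 5p products of the 3 genes at the start of the cluster are the following.
miR-322-5p: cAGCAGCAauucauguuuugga
miR-503-5p: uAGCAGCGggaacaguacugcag
miR-351-5p: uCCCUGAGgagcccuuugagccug
The seeds of miR-322-5p and miR-503-5p are identical at 6 of 7 bases and differ by A8G, counted from the 5′ end of miR-322-5p. The seed of miR-351-5p is unrelated to both. The remaining genes give the following products.
miR-542-5p: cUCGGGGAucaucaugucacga
miR-542-3p: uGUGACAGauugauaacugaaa
miR-450a-5p: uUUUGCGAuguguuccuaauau
miR-450b-5p: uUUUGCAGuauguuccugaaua
miR-450a-1-3p: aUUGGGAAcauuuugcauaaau
miR-450a-2-3p: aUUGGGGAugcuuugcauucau
miR-450b-3p: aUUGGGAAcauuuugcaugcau
The seeds of miR-450a-5p and miR-450b-5p agree at 5 of 7 bases (G7A and A8G from the first to the second). The 3p products of Mir450-1 and Mir450b have the same seed and agree at 20 of 22 bases. That of Mir450-2 differs from the Mir450-1 product in the seed by A7G. Counts in the tables are per gene, with the arms together, so no arm could be measured on its own.

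Of the 13 distinct mature products of the cluster, miR-450a-5p was the single one listed for a second gene. Mir450-1 and Mir450-2 both encode it, as their hairpins show with that product in capitals.
Mir450-1 hairpin: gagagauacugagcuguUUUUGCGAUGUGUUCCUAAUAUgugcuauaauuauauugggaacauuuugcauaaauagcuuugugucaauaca
Mir450-2 hairpin: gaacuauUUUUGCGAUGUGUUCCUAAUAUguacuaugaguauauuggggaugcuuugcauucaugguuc
The longest identical stretch of these 2 hairpins was 25 bases, so a read of miR-450a-5p fits both places equally. Reads with several alignments made up 26.5% and 26.6% of the reads in replicates 1 and 2 and were assigned to no gene. The counts of Mir450-1 and Mir450-2 are therefore uncertain. Mir450b shares a run of 19 bases with Mir450-1, just under the 20 bases used here to call a gene one that shares sequence. For the other 4 members the longest run shared with any annotated microRNA hairpin elsewhere was 11 to 13 bases.

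The cluster lies on the minus strand of the X chromosome (GRCm38, 53047997 to 53054349) and spans 6353 bases. Along the transcribed strand Mir322 (53054255 to 53054349) comes first, followed by Mir503 (53053984 to 53054054) after 200 bases and Mir351 (53053255 to 53053353) after 630. A stretch of 3767 bases separates these 3 from Mir542 (53049403 to 53049487). Mir450-2 (53048299 to 53048367), Mir450-1 (53048154 to 53048244) and Mir450b (53047997 to 53048078) follow within 1035, 54 and 75 bases of the gene before each. GENCODE release M21 places none of the 7 inside another annotated gene. It annotates the long noncoding transcript C430049B03Rik upstream of Mir322 (53055046 to 53057190) and Gm28730 between Mir351 and Mir542 (53051194 to 53053159), both on the minus strand. RefSeq extends C430049B03Rik to 53053112, which takes in 3 members, Mir322, Mir503 and Mir351. Neither long transcript has a row in the count tables.

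The libraries held 15090126 and 3903472 counts on the strand of the gene, replicate 1 being 3.87 times deeper. Levels are given in CPM, the sense counts of a gene per 1000000 sense counts of all genes, and means ± SD are over the 2 libraries. These are counts of reads per hairpin without scaling for length. Differences in ligation and amplification between microRNAs were not measured. With 3 counts as the upper limit of a count of 0, a gene without reads may reach 0.199 CPM in the deeper library and 0.769 CPM in the other. Intervals and limits cover counting error only, since PCR copies of a molecule are counted as reads. Markers of the labelled tissue were present. The smooth muscle pair Mir143 and Mir145a took 17.2% and 15.0% of the counts and the 4 intestinal epithelial genes (Mir192, Mir194-1, Mir194-2 and Mir215) 0.898% and 1.14%. The 3 leukocyte, 3 erythroid and 8 measured striated muscle genes took at most 0.0557%, 0.0409% and 0.00332% in either library. Sequence sharing was not examined for the marker genes, so multiply aligned reads may be missing from these shares. A low share therefore does not show that a cell type was absent. In bulk tissue, fewer cells of a type and less RNA per cell cannot be told apart.

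The cluster was an abundant source of microRNA in the embryonic intestine, and nearly all of its counts came from the 3 genes at its start. Together the 7 genes had 332152 counts in replicate 1 and 84965 in replicate 2. These are 2.20% (95% Wilson interval 2.19 to 2.21%) and 2.18% (2.16 to 2.19%) of the counts, a mean of 2.19 ± 0.0173% (SD, n = 2). Of all reads in the tables, unaligned and multiply aligned ones included, they are 1.26% and 1.21%. Mir322, Mir503 and Mir351 held 95.3% of the cluster's counts in replicate 1 and 95.1% in replicate 2. The 4 genes downstream of the long gap held the other 4.65% and 4.90%. The 3 miR-450 genes made up 1.03% and 1.20%, without the multiply aligned reads of miR-450a-5p.

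Mir322, the first hairpin and the member with the miR-15/16 seed, was the leading gene. It had 246385 counts in replicate 1, or 16328 CPM (interval 16264 to 16392), and 61328 counts in replicate 2, or 15711 CPM (15588 to 15835). Its mean of 16019 ± 436 CPM placed it 17th among the 363 genes (16th in replicate 1 and 17th in replicate 2). Ranks here are by the counts assigned to each gene. Genes whose reads align to several places may therefore rank too low. Mir322 took 74.2% and 72.2% of the cluster's counts. The hairpin of this gene, with miR-322-5p in capitals, is printed because the level of the whole cluster rests on it.
Mir322 hairpin: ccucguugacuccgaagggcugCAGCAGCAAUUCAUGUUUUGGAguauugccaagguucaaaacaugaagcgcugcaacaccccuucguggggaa

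Mir351, the member with the miR-125 seed, came second, although Mir503 lies between it and Mir322. It had 58568 counts (3881 CPM) in replicate 1 and 16230 counts (4158 CPM) in replicate 2, with a mean of 4020 ± 196 CPM and rank 51. It held 17.6% and 19.1% of the cluster's counts. The pair Mir322 and Mir351 thus held 91.8% and 91.3%.

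Mir503 and Mir542, which differ in position and seed, could not be ranked against each other. Mir503 had 11752 counts (779 CPM) in replicate 1 and 3242 (831 CPM) in replicate 2. Mir542 had 12012 (796 CPM) and 3145 (806 CPM). Mir542 was the higher of the pair in replicate 1 and Mir503 in replicate 2. Their log2 ratio was -0.03 (exact interval -0.068 to 0.005) and 0.04 (-0.027 to 0.12) respectively. The means were 805 ± 36.6 and 801 ± 6.84 CPM, ranks 107 and 108. Mir503, the closest neighbour of Mir322 and nearest to it in seed, stood far below it, at a log2 ratio to Mir322 of -4.39 in replicate 1 and -4.24 in replicate 2, or 19.9-fold lower on average.

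The miR-450 genes, at the end of the cluster, had the lowest assigned counts. Mir450b had 2886 counts (191 CPM) in replicate 1 and 881 (226 CPM) in replicate 2, with a mean of 208 ± 24.4 CPM. Mir450-1 had 24.1 CPM (363 counts) and 23.1 CPM (90 counts), and Mir450-2 had 12.3 CPM (186 counts) and 12.6 CPM (49 counts). Mir450b stood above the other pair in both libraries, and Mir450-1 above Mir450-2. The last 2 values leave out reads of their shared 5p product that aligned to both places. How many those were was not measured. The order within the miR-450 genes is therefore uncertain, as is the place of Mir450-1 and Mir450-2 among the other members.

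**Figure D1:**
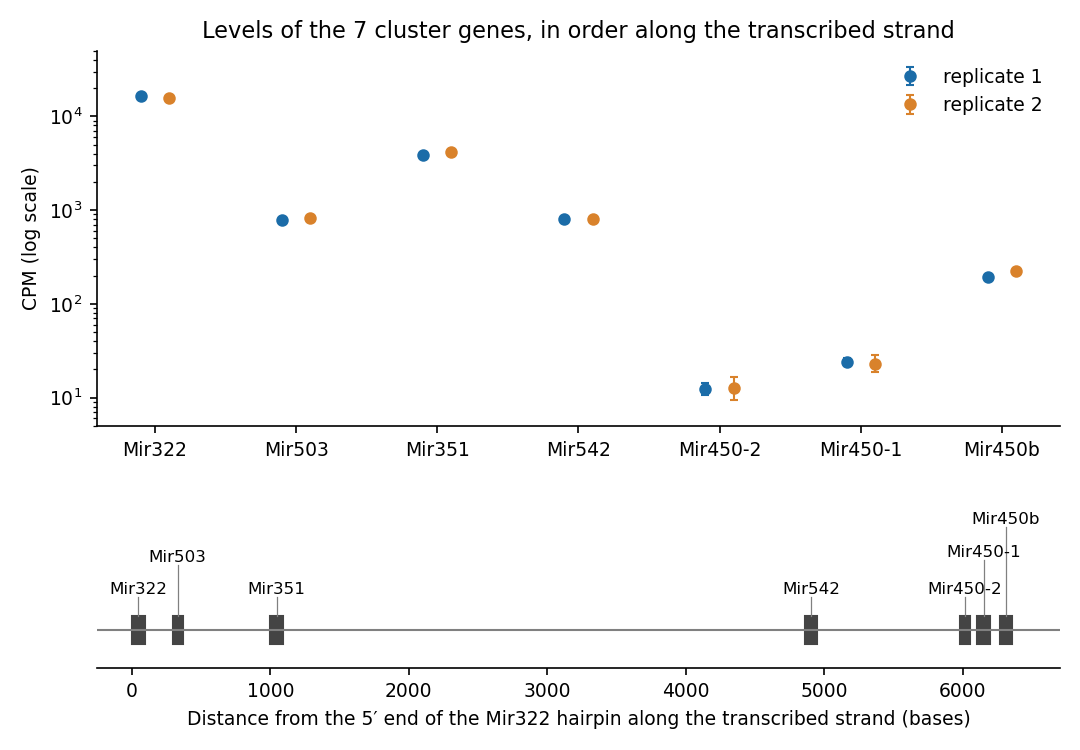
Upper panel: level of each cluster gene in CPM (log axis) in replicates 1 and 2, with 95% Wilson intervals, in order along the transcribed strand. Lower panel: the 7 hairpins to scale, in bases from the 5′ end of the Mir322 hairpin. Mir322 leads at 16328 and 15711 CPM, Mir351 exceeds its upstream neighbour Mir503, and Mir450-2 is lowest at 12.3 and 12.6 CPM. The values of Mir450-1 and Mir450-2 leave out multiply aligned reads.

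Steps between members were large beside the gap between the libraries, with 1 exception. In order of level, 5 of the 6 steps had the same sign in both libraries and a mean log2 ratio above that gap. Mir322 exceeded Mir351 by a log2 ratio of 2.07 in replicate 1 and 1.92 in replicate 2, or 3.99-fold on average. Mir351 exceeded Mir503 by 2.32 in each, or 4.99-fold, the step that differed least between the libraries (gap 0.0065). Mir542 exceeded Mir450b by 2.06 and 1.84, or 3.85-fold. Mir450b exceeded Mir450-1 by 2.99 and 3.29, or 8.82-fold, and Mir450-1 exceeded Mir450-2 by 0.96 and 0.88, or 1.89-fold. These last 2 ratios carry the uncertainty of the shared 5p product. From end to end, Mir322 exceeded Mir450-2 1325-fold in replicate 1 and 1252-fold in replicate 2, with the same uncertainty for Mir450-2. An exact test over 2 libraries cannot reach 0.05, so the steps were not tested.

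Level did not follow position step by step. On the chromosome the level was lower at Mir503 than at Mir322, higher again at Mir351 (Mir503 over Mir351 log2 -2.32 in both libraries), and lower at Mir542 (Mir351 over Mir542 log2 2.29 and 2.37). Mir542 exceeded its next neighbour Mir450-2 64.6-fold and 64.2-fold. Mir450-1 and Mir450b, at the far end, were above Mir450-2. The values of Mir450-1 and Mir450-2 leave out multiply aligned reads, so the steps to and from these genes are uncertain.

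The hairpins differed in base composition along the cluster. RefSeq holds the hairpin of 6 members. GC content was 51.6% for Mir322, 54.9% for Mir503 and 51.8% for Mir542, against 36.2% for Mir450-2, 33.0% for Mir450-1 and 30.5% for Mir450b. The 3 members with low GC content were the 3 with the lowest counts. For Mir450-1 and Mir450-2 these counts leave out multiply aligned reads, whose number was not measured. How far their low counts go with GC content is therefore uncertain. Predicted folding energy, computed with RNAfold, was -42.9 kcal/mol for Mir322 and -41.0 kcal/mol for Mir450-1, or -0.452 and -0.451 kcal/mol per base. These 2 hairpins stand at 16019 and 23.6 CPM, the value of Mir450-1 being uncertain for the same reason. The strongest predicted fold per base was that of Mir503 (-0.530 kcal/mol), and the weakest that of Mir450-2 (-0.384). With 6 hairpins from 1 locus these are descriptions.

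Mir322 had the most counts among the genes whose 5p product carries its seed. The counts are of both arms together, so the seed itself was not measured. RefSeq lists 10 genes at other loci with a mature product of the seed AGCAGCA. The most abundant of these follow, with the seed in capitals, to show that they part from miR-322-5p right after it.
miR-15a-5p: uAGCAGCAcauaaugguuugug
miR-15b-5p: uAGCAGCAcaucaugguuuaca
miR-16-5p: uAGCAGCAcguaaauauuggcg
miR-195a-5p: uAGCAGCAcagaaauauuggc
miR-15a-5p and miR-322-5p are identical at 15 of 22 positions, and miR-16-5p and miR-322-5p at 12 of 22. Mir15a (chromosome 14, 61632027 to 61632110) reached 2513 and 2707 CPM in replicates 1 and 2. Mir16-1, beside it, had 1980 and 2070 CPM, Mir15b (chromosome 3) 1676 and 1838 CPM, Mir16-2 610 and 650 CPM, and Mir195a (chromosome 11) 497 and 536 CPM. By assigned counts Mir322 was above each of these genes in both libraries. Mir195b, Mir6342, Mir6353 and Mir6419 had no count in either library. No row with a matched symbol was that of Mir497, so it entered no sum.

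Mir322 held 69.2% of the counts over these genes in replicate 1 and 66.8% in replicate 2. It exceeded the sum of the others 2.24-fold and 2.01-fold (log2 1.17 and 1.01), more than the gap of 0.16 between the libraries. It exceeded Mir15a, the next highest by assigned counts, 6.50-fold and 5.80-fold. Mir16-1 and Mir16-2 share a run of 23 bases, so reads of miR-16-5p may be missing from the sum. The ratio may therefore be too high, and the place of these 2 genes in the order is uncertain. Without this pair the sum is smaller still and the mean log2 ratio was 1.71, against 1.09 with it, which does not measure the missing reads.

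The level of Mir351 was close to that of Mir125a, the miR-125 family gene with the most assigned counts. The family members with counts, shown for comparison with miR-351-5p, have the seed CCCUGAG.
miR-125a-5p: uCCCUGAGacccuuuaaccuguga
miR-125b-5p: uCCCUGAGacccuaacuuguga
Beyond the seed they differ from miR-351-5p, with 10 identical positions of 24 for miR-125a-5p and 10 of 22 for miR-125b-5p. Mir125a (chromosome 17, 17830812 to 17830879) reached 3937 CPM in the deeper library and 4211 CPM in the other, where Mir351 had 3881 and 4158 CPM. The log2 ratio of Mir351 over Mir125a was -0.020 (exact interval -0.037 to -0.0039) and -0.018 (-0.050 to 0.013). The intervals leave room for a difference of at most 0.050 on the log2 scale.

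Mir125b-1 (chromosome 9) had 619 and 626 CPM and Mir125b-2 (chromosome 16) 361 and 374 CPM. These 2 genes share a run of 24 bases and may lack reads of miR-125b-5p, so their order against Mir125a and Mir351 is uncertain. Mir351 held 44.1% and 44.4% of the counts over the 4 genes. Its log2 ratio to the sum of the other 3 was -0.34 and -0.33. Without the pair that shares sequence the mean ratio was -0.02, against -0.33 with it. Mir6367 and Mir6394, which also carry this seed, had no count in either library.

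For the other seeds of the cluster, matching genes elsewhere were absent or nearly without counts. No other RefSeq gene had the seed of miR-503-5p, miR-542-3p, miR-450a-5p or miR-450b-5p. The seed of miR-542-5p occurs in Mir6966, which had 3 counts in each library, and that of the 3p products of Mir450-1 and Mir450b in Mir6352, which had none.

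**Figure D2:**
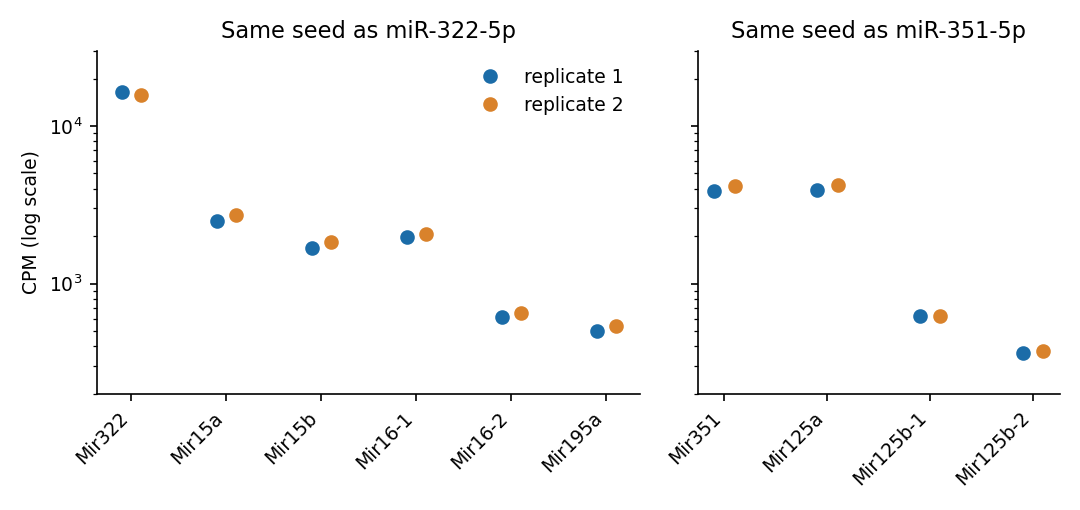
Level in CPM (log axis) of the genes with the seed of miR-322-5p (left) and of miR-351-5p (right) in replicates 1 and 2; genes at 0 are not drawn. Mir322 lies above the 5 other counted genes of its seed, while Mir351 (3881 and 4158 CPM) lies level with Mir125a (3937 and 4211 CPM). Genes that share sequence may lack multiply aligned reads.

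Among 3 X-linked microRNA clusters, this one had the highest sum and the widest range. The miR-106a-363 cluster, a paralogue of miR-17-92, ends 305 kb away on the same chromosome (52741693 to 52742567). Its 6 genes gave 0.199% and 0.198% of the counts, so the Mir322 cluster exceeded it 11.1-fold and 11.0-fold. The 5 measured genes of the cluster from Mir532 to Mir500 (7237683 to 7248497) gave 0.229% and 0.251%. Mir660, which also belongs to that list, was not analysed here.

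The leading gene took a larger part in the Mir322 cluster than in the other 2. Mir322 held 74.2% and 72.2% of its cluster, Mir106a 36.5% and 36.0%, and Mir532 42.5% and 42.7%. The leading gene exceeded the second 4.21-fold and 3.78-fold in the Mir322 cluster, 1.38-fold and 1.36-fold for Mir106a over Mir363, and 1.25-fold and 1.34-fold for Mir532 over Mir188. The range from first to last was 1325-fold and 1252-fold here, 87.1-fold and 62.0-fold from Mir106a to Mir19b-2, and 7.98-fold and 8.40-fold from Mir532 to Mir362. Mir19b-2 shares a run of 25 bases with Mir19b-1 and Mir92-2 a run of 22 bases with Mir92-1, so their levels are uncertain as well. Leaving out the genes that share sequence, the means ranged from 16019 to 208 CPM here and from 721 to 60.4 CPM in the miR-106a-363 cluster. These are comparisons of 3 loci in 2 libraries, and no test was run.

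**Figure D3:**
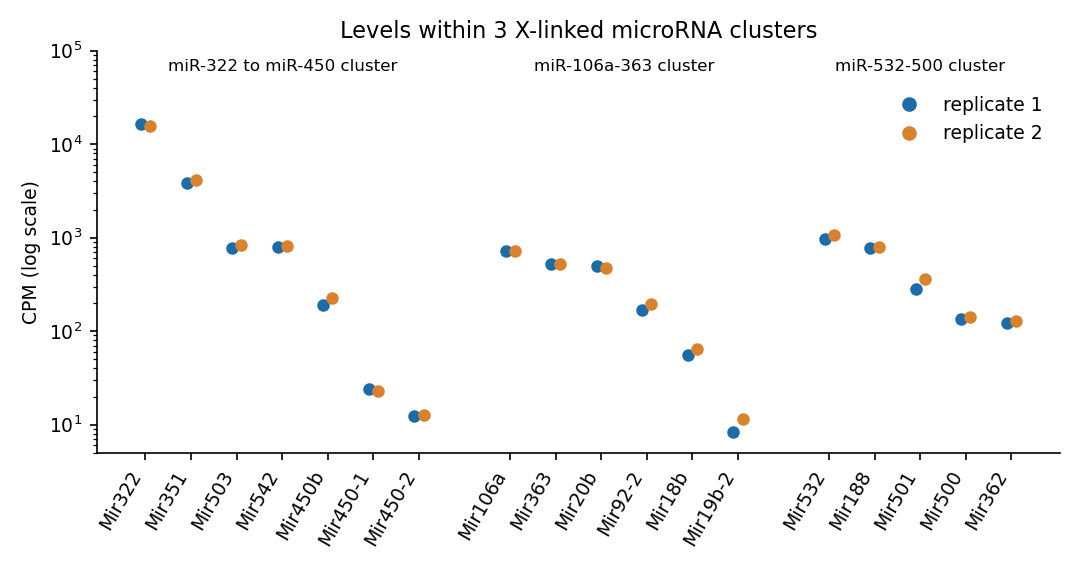
Level in CPM (log axis) of each measured gene of 3 X-linked clusters in replicates 1 and 2, ordered by level within each. The Mir322 cluster reaches from 16019 CPM to 12.4 CPM on average, while the leading genes of the others, Mir106a and Mir532, stand at 721 and 1021 CPM. Genes that share sequence may lack multiply aligned reads.

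Scaled by the library totals, the cluster differed little between the 2 libraries. Its summed level in replicate 2 was 0.989 times that in replicate 1. In the same libraries the smooth muscle list stood at 0.872 times, the intestinal epithelial list at 1.27 times, the general epithelial miR-200 list at 1.22 times and the mesenchymal list (Mir214 and 3 miR-199 genes) at 1.15 times. The erythroid list stood at 1.58 times, the leukocyte list at 1.24 times, Mir122 of liver at 1.28 times, Mir126a of endothelium at 1.03 times and the striated muscle list at 0.957 times. All genes of these lists had counts in both libraries except 2 of the 8 striated muscle genes measured, and the part of such differences in the members' values was not tested. The median absolute log2 difference was 0.06 over the 7 members and 0.15 over all 363 genes. These medians were not matched for level, and counting error is larger at few counts. At least 50 counts in both libraries were reached by 277 of the 363 genes and by 6 of the 7 members.

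Mir450b differed most between the libraries among the members, at 191 and 226 CPM. Its log2 difference (replicate 2 over replicate 1) was 0.24 (95% counting interval 0.13 to 0.35), rank 117 of 363 by size. Mir351 (0.10, interval 0.074 to 0.12) and Mir503 (0.09, interval 0.036 to 0.15) were slightly higher in replicate 2 and Mir322 slightly lower (-0.06, interval -0.068 to -0.043). An exact binomial test, two-sided and adjusted over the 363 genes by the Benjamini-Hochberg method, called these 4 members of 7 (adjusted p = 8.02e-05 for Mir450b, 7.12e-14 for Mir351, 0.00376 for Mir503 and 7.64e-17 for Mir322). It called 43.8% of all genes, 29.8% as higher and 14.0% as lower, and against these shares 3 members higher and 1 lower is not a result about the cluster. The test compares the reads of these 2 libraries, not conditions, and at these depths it passes differences of a few percent.

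Mir542 (0.02), Mir450-1 (-0.06) and Mir450-2 (0.03) did not pass (adjusted p = 0.666, 0.843 and 0.958, exact binomial test). For Mir450-1 and Mir450-2 the intervals reached from -0.41 to 0.28 and from -0.46 to 0.49, so that smaller differences were not detectable at this depth. The calls depended on the scaling. With edgeR's TMM library sizes 2 members passed, Mir322 (-0.14, against -0.06 by totals) and Mir450b (0.16). With DESeq2's size factors 3 passed, Mir322 (-0.15) and Mir542 (-0.075) as lower and Mir450b (0.15) as higher. Mir351 (0.02 and 0.01) and Mir503 (0.01 and 0) no longer passed under either. The direction of Mir542 and Mir450-2 turned to lower under both. Over all genes the calls were 108 higher and 51 lower as counted, 58 and 84 with TMM, and 54 and 90 with the size factors.

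Within the cluster, the library total plays no part. The share of Mir322 was lower in replicate 2 by more than counting error (74.2%, interval 74.0 to 74.3%, against 72.2%, 71.9 to 72.5%). The shares of Mir351 (17.6%, interval 17.5 to 17.8%, and 19.1%, 18.8 to 19.4%), Mir503 (3.54% and 3.82%) and Mir450b (0.869% and 1.04%) were higher in replicate 2, with intervals that do not overlap. Those of Mir542 (3.62% and 3.70%), Mir450-1 and Mir450-2 had intervals that overlap.

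**Figure D4:**
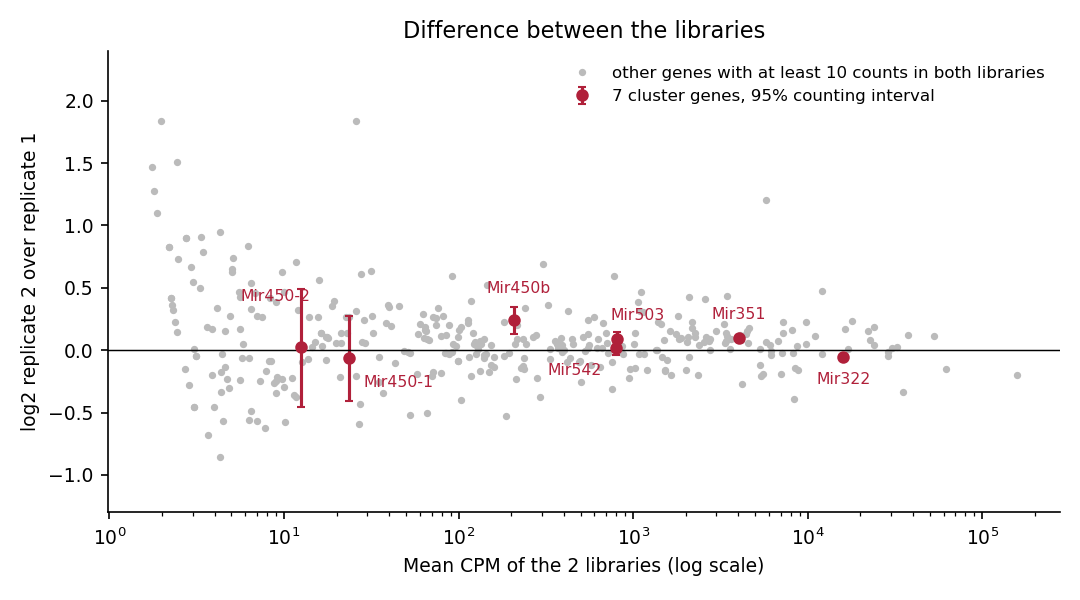
Difference between the libraries (log2 of replicate 2 over replicate 1) against mean CPM (log axis) for genes with at least 10 counts in both libraries, with the 7 members and their 95% counting intervals in red; 1 other gene lies beyond the axis. Scaled by the library totals, the members lie between -0.06 and 0.24, close to the zero line.

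The genes with the level most like that of Mir322 over the 2 libraries, by Euclidean distance in log2 CPM among the other detected genes, were Mir99b (16937 and 17016 CPM, distance 0.13), Mir429 (15442 and 17419 CPM, distance 0.17) and Mir21a (16517 and 19391 CPM, distance 0.30). Mir429 belongs to the epithelial miR-200 family. The values of Mir322 were 16328 and 15711 CPM. Likeness over 2 libraries rests on level alone.

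No read was counted on the opposite strand of any of the 7 genes in either library. With 3 counts as the limit of a count of 0, this bounds the opposite strand of each gene at 0.199 and 0.769 CPM, below the sense level of the lowest member, Mir450-2.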

How the data were processed

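Per the labels, total RNA of 2 intestines was sequenced as small RNA. The tables the authors deposited hold raw read counts per gene, in columns for both strands together, the sense strand and the antisense strand, a reading that rests on the values. Per the accompanying text files, the alignment used mm10 and the gene assignment GENCODE M4. The aligner, trimming and counting program are not given in the sources used here. Unaligned (12.4% and 13.8%), multiply aligned (26.5% and 26.6%) and unassigned (2.20% and 2.10%) reads entered the total of all reads only. They are not in the total used for CPM.

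Sense counts were divided by their total over 1973 gene rows. GENCODE M21 gave symbols and positions (1894 rows matched; the 7 members had the same identifier version) and RefSeq the mature sequences (7 of 7) and hairpins (6 of 7). The 2 libraries were compared by an exact binomial test, two-sided, with p-values adjusted by Benjamini-Hochberg (threshold 0.05). The test was checked on simulated counts that held counting error only, so the check does not cover variation between replicates. edgeR's quasi-likelihood test has no contrast in 1 group. Ratios between genes carry exact conditional intervals and were set against the gap between libraries. Sharing sequence means an identical run of 20 bases with another annotated microRNA hairpin. Mir92a-2 has the symbol Mir92-2 in that annotation. Named genes were the 7 members, the genes with the seed of a member, 2 other X-linked clusters, cell type markers and the 3 genes nearest in level to Mir322. The members and lists were chosen with earlier results of these data known. Alternatives were other scalings (edgeR 4.0.16 TMM, DESeq2 1.42.0 size factors), totals, strands, count minimums and single libraries. SciPy 1.17.1 and RNAfold 2.7.2 were used.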

Additional observations from a re-analysis of the deposited data

Results flagged for a closer look

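Counts outside the main measure appeared at 3 genes of the lists compared with the cluster, above the limit of 3 counts. Mir497b (chromosome 11, 70234692 to 70234816, minus strand) had 7303 counts on its opposite strand in replicate 1 and 2128 in replicate 2, or 484 and 545 CPM, against 1 and 0 on its own strand. RefSeq places miR-497a-5p, which carries the seed of miR-322-5p, on that opposite strand (70234730 to 70234751). These counts entered no sum above. With both strands counted and this place included, an alternative chosen after seeing the data, the mean log2 ratio of Mir322 to the other genes of its seed was 0.99, against 1.09. Mir126a (chromosome 2) had 115 and 38 counts on its opposite strand, against 354282 and 94364 on its own. Mir486 (chromosome 8) had 13 and 5 there, against 58 and 25 on its own.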

How the results depend on the processing

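The cluster's share of the counts moved with the total it is divided by: 2.12% with both strands counted, 1.24% of all reads in the tables and 2.60% without the most abundant gene, against 2.19%. Without genes that share sequence it differed by less than 1 SD. Multiply aligned reads were already missing from those genes, so this does not measure the missing reads. Within the cluster, counting both strands cannot change a value, since no member had opposite-strand counts, and with 2 libraries a single one always lies within 1 SD of their mean. The log2 ratio of Mir503 to Mir542 turned with the library, from 0.044 without replicate 1 to -0.032 without replicate 2. Leaving out genes that share sequence gave a log2 ratio of 1.71 for Mir322 to miR-15/16 genes and of -0.019 for Mir351 to miR-125 genes. The differences between the libraries depended on the scaling. Members called were 4, with 3 higher and 1 lower. TMM gave 2, with 1 higher; DESeq2 size factors gave 1 higher and 2 lower. Log2 differences that turned were those of Mir542 (-0.065 with TMM, -0.075 with size factors, -0.020 without the most abundant gene) and Mir450-2 (-0.056, -0.066 and -0.011 in the same order). The size factor ratio equals that of Mir503, whose difference is then 0. These scalings move all genes by -0.083 and -0.093, and the cause was not tested. Mir503 also no longer passed with the total that leaves out the most abundant gene (adjusted p = 0.114, exact binomial test). With no filter 152 of 768 genes (19.8%) were called and with at least 50 counts 156 of 277 (56.3%), against 43.8%; each called 4 members, with 3 higher and 1 lower. Leaving out a library leaves no difference to test. Leaving out a replicate moved the cluster share between 2.18% and 2.20%. No paired analysis was possible because there is 1 group. Depth limits Mir450-1 and Mir450-2 most.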
